A study of Rattus norvegicus with 2 samples.

Results

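The macrophage and Fc receptor genes are 37 genes by which macrophages, their growth signals and their receptors for antibodies are recognized in tissue. They were taken by name, and each gene is represented by the probe set that carries no other gene symbol or, where it has several, by the brightest of these. All 37 were found, among 22093 genes measured this way and 68842 probe sets in all. Kidney RNA was compared between 2 groups of male Dahl salt-sensitive (Dahl/SS) rats, a strain in which dietary salt raises blood pressure and injures the kidney. DSH rats received chow with 8% NaCl for 4 weeks, and DSH+2.5%SF rats received the same chow with, from 1 week after its start, 25 mg/g of sucroferric oxyhydroxide (SF), an iron-based binder that holds back phosphate in the gut. The sample labels call the groups control and 2.5%SF, and the diets and the rats' age of 3 weeks on arrival are taken from the methods of the paper. RNA of 3 whole kidneys was pooled in each group and hybridized to 1 Clariom D array. Rats on normal salt were not on the arrays, so the values do not show what the salt itself did.

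With 1 array per group there was no replicate error, no p-value could be given, and a difference between the groups cannot be told apart from differences among the pooled rats. The values are intensities computed with RMA, in which probes are background-corrected, normalized between arrays and summarized per probe set. Their medians over all probe sets were 22.9 in DSH and 23.7 in DSH+2.5%SF. A gene was called higher when its ratio of DSH+2.5%SF over DSH was at least 1.5 with a Z-score of at least 2.0, and lower when the ratio was at most 0.66 with a Z-score of at most −2.0, the thresholds that the study used. The Z-score sets a log2 ratio against the mean (0.03) and the SD (0.34) of all probe sets. A gene was taken as detected when it was at or above an intensity of 83.8, the 75th percentile over both arrays, in either pool, and as dim otherwise. The tissue showed its own markers, with 10 of 11 measured kidney segment genes and 8 of 8 endothelial and stromal genes detected. In whole-kidney RNA, fewer macrophages and less RNA per macrophage cannot be told apart.

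Macrophages live in the kidney interstitium and are joined there by blood monocytes when the tissue is injured. They depend on the receptor Csf1r, which binds colony-stimulating factor 1 and interleukin 34, and they take up debris, lipids and particles through scavenger receptors and C-type lectins. Fc gamma receptors bind the constant part of immunoglobulin G, so that particles coated with antibody are engulfed. The activating ones signal through the Fc receptor gamma chain, encoded by Fcer1g, whereas Fcgr2b carries an inhibitory motif. PU.1, encoded by Spi1, is the transcription factor that switches on many of these genes by binding purine-rich sites in their promoters.

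The macrophage and Fc receptor genes did not move as 1 block between the pools. Aoah was called higher in DSH+2.5%SF and Fcgr2al1 was called lower, and the other 35 genes passed neither criterion. Thus 1 of 37 was higher and 1 of 37 was lower, where 1.09% of all genes were called higher and 1.36% lower. The median log2 ratio was −0.09 over the 37 genes and 0 over all genes. Of the 37, 22 had a log2 ratio below 0 (47.5% of all genes did), 10 had one above 0 and 5 were listed at the same intensity in both pools, to the last digit deposited. The same intensity in both pools was found in 9.13% of all genes. In all, 33 of the 37 lay within 0.5 of 0 on the log2 scale, the exceptions being Aoah, Fcgr2al1, Fcgr2a and Adgre1.

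Of the 37 genes, 19 were detected and 18 were dim. Among the detected, 12 had a log2 ratio below 0, where 58.7% of all 8269 detected genes did. Their median log2 ratio was −0.18, against −0.06 over all detected genes. Adgre1 and Gpnmb reached the limit in the DSH pool only, so that these members counted as detected through the pool in which they were brighter and had to be below 0. With the limit required in both pools, 17 members were left, 10 of them below 0, and their median log2 ratio was −0.09. The share and median over all genes were not computed under that limit, so these values cannot be set against a background. Closest to the limit inside were Gpnmb, at 88.9 in DSH, and Fcgr1a, at 99.6, and closest outside were Irf8, at 75.5, and Cd86, at 55.9. The plot of intensities shows the detected genes in both pools.

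**Figure D1:**
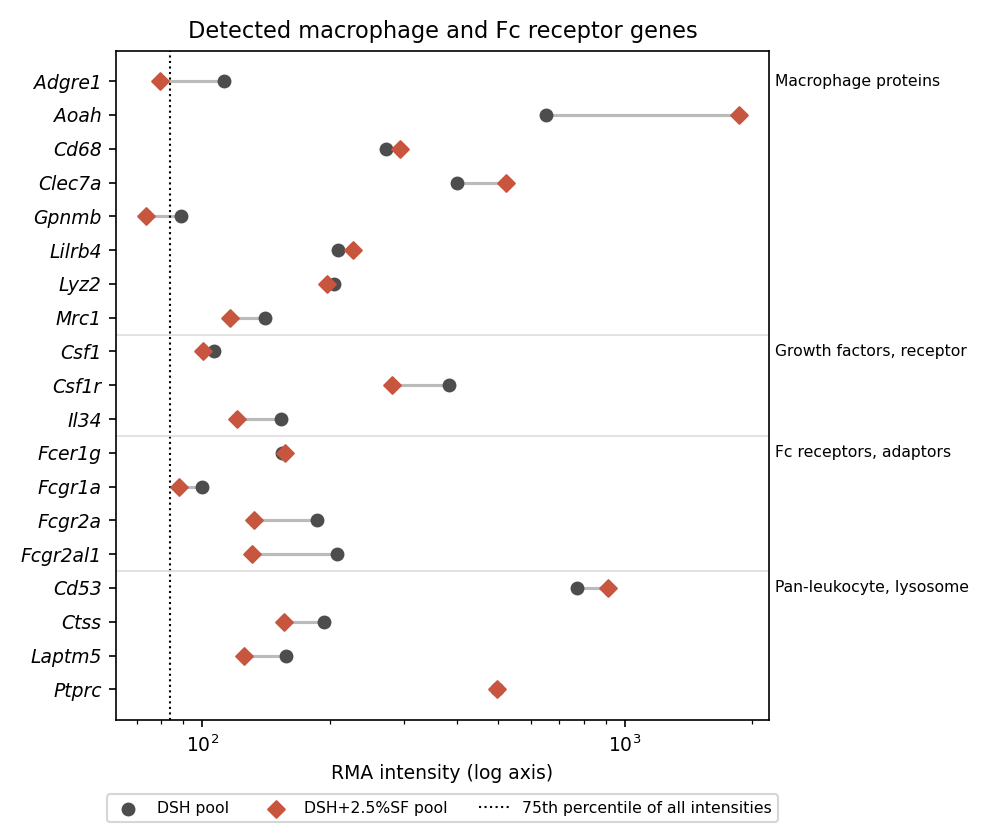
RMA intensity (log axis) of the 19 detected macrophage and Fc receptor genes in the DSH pool (circles) and the DSH+2.5%SF pool (diamonds), 1 array each, grouped by role; the dotted line is the 75th percentile of all intensities (83.8). Aoah stands at 649.8 and 1861, while Ptprc has 1 value in both pools.

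Aoah encodes acyloxyacyl hydrolase, which inactivates bacterial lipopolysaccharide by removing acyl chains and which, in mice and rabbits, is made by proximal tubule cells as well as by macrophages. It read 649.8 in the DSH pool against 1861 in the DSH+2.5%SF pool, 2.86-fold higher, with a Z-score of 4.40. Only 5 of the 8269 detected genes, Aoah included, had a log2 ratio as high as its 1.52. The call held with the Z-score computed among the 1000 probe sets nearest in brightness (3.71), by which 1.05% of all genes were called higher. Clec7a, which encodes the beta-glucan receptor dectin-1, had intensities of 401.1 and 524.0 and a log2 ratio of 0.39, the next highest of the 37. It did not pass.

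**Figure D2:**
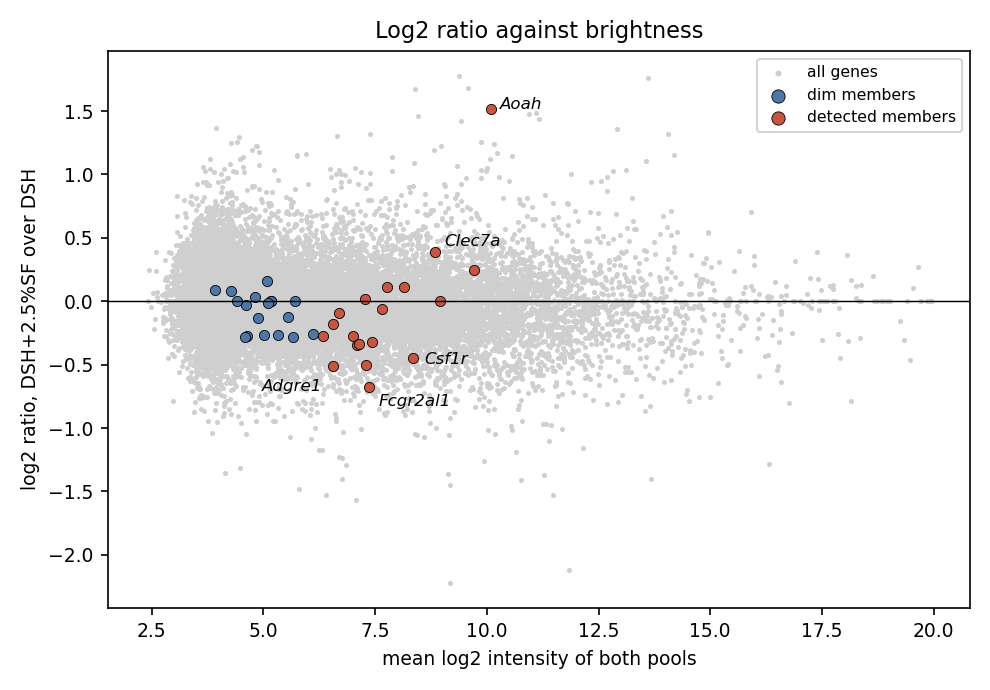
Log2 ratio of DSH+2.5%SF over DSH against the mean log2 intensity of both pools for all 22093 genes (gray), with the 19 detected (red) and 18 dim (blue) macrophage and Fc receptor genes. Aoah lies at 1.52 near the upper edge of the genes of its brightness, and the dim members lie between −0.28 and 0.16.

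Of the macrophage marker genes Cd68, Cd14, Adgre1, Csf1r, Mrc1 and Aif1, none passed the criteria. Cd14 (log2 ratio −0.26, dim), Adgre1, Csf1r (−0.45) and Mrc1 were below 0. Aif1, also dim, was equal in both pools, and only Cd68 was above 0. Cd68, which encodes the lysosomal glycoprotein recognized by the antibody ED-1, read 271 without SF and 294 with it, a log2 ratio of 0.11. Adgre1, which encodes F4/80, was at 113 and 79.2, with a log2 ratio of −0.51 and a Z-score of −1.59. Mrc1, the gene of the mannose receptor, read 140.3 without SF and 116.1 with it, and Gpnmb, a gene of lipid-laden and lysosome-rich macrophages, at 88.9 and 73.5. Their log2 ratios were −0.27 and −0.28. Lyz2, which encodes lysozyme, was nearly level at 205.1 and 196.8 (−0.06), and the inhibitory receptor gene Lilrb4 read 209.4 without SF and 226.6 with it (0.11). Over the 18 genes of macrophage surface and effector proteins the median log2 ratio was 0, with 8 below 0, 6 above it and 4 equal in both pools.

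The growth factor axis of macrophages was below 0 at each of its 3 genes, and none of the 3 passed. The receptor gene Csf1r fell short of the criteria with readings of 382.6 without SF and 281 with it, a log2 ratio of −0.45 and a Z-score of −1.41. Of its ligands, Il34, which tubular epithelial cells make in mice, was at 153.5 and 120.8 with a log2 ratio of −0.35. Csf1 was at 106.7 and 100.1 with a log2 ratio of −0.09. The spread of log2 ratios among all detected genes had an SD of 0.30, so that the ratio of Csf1 lay well within it and those of Il34 and Csf1r lay 1 to 2 such SDs from 0.

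The Fc gamma receptors were divided between Fcgr2a and Fcgr2al1, with the lowest ratios, and the others. Fcgr2al1, annotated as a gene like Fcgr2a, read 208.8 without SF and 130.9 with it, 1.59-fold lower, and its Z-score was −2.08. Among probe sets of similar brightness its Z-score was −1.72 and it was not called; by that measure 0.883% of all genes were called lower. The study lists this gene, under an older symbol, among those it selected on these pools, so its direction is not independent evidence. Fcgr2a, an activating receptor, had 3 probe sets of its own. The brightest was at 187.0 and 132.2, the next at 175.2 and 127.7 and the third at 161.8 and 112.8, with log2 ratios of −0.50, −0.46 and −0.52. The 3 probe sets thus lay close to each other on the log2 scale, and none passed. Whether they read separate sequence was not examined, so they may not be separate measurements. In the RefSeq gene order of assembly GRCr8, Fcgr2a and Fcgr2al1 are neighboring protein-coding genes, followed by the pseudogene Fcgr2a-ps1. Probe sets of such close copies may read the same transcripts, and the ratios of these 2 genes may not be separate measurements.

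The remaining Fc gamma receptor genes and the adaptors did not pass. Fcgr1a, the high-affinity receptor for immunoglobulin G, read 99.6 without SF and 88.1 with it, a log2 ratio of −0.18. Fcgr2b, the inhibitory receptor, was dim at 35.3 and 29.4, with a log2 ratio of −0.26. Fcgr3a, listed in RefSeq also as Fcgr4, while Fcgr3a is in turn an older name of Fcgr2a, was dim at 31.8 and 35.5, and was the Fc gamma receptor gene with a ratio above 0 (0.16). Fcer1g, the shared signaling chain, was detected and level at 154.7 and 156.9, with a log2 ratio of 0.02. Tyrobp, the adaptor DAP12 of Trem2 and other receptors, was dim with a log2 ratio of −0.12. The ratio of Fcer1g was thus close to 0 where that of Fcgr2a, whose protein signals through it, was −0.50. Whether that difference exceeds the error of the arrays could not be tested.

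**Figure D3:**
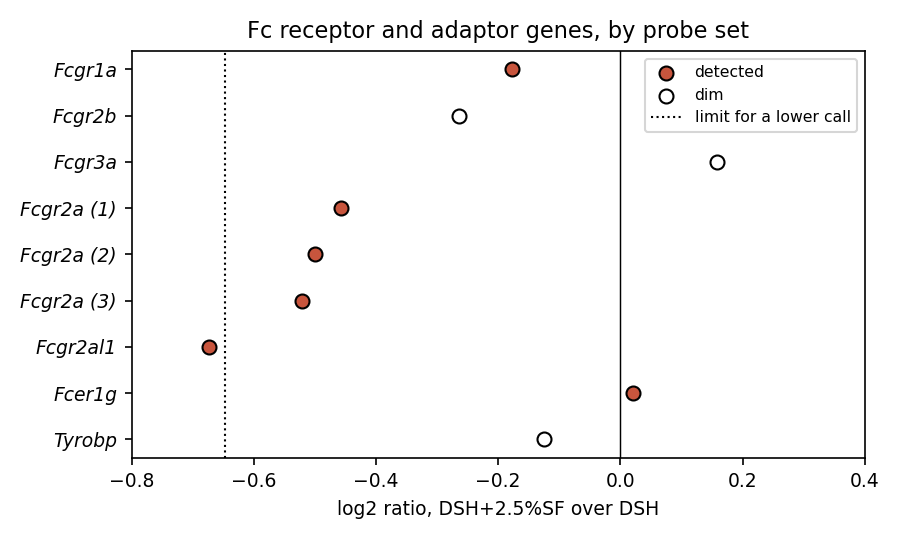
Log2 ratio of DSH+2.5%SF over DSH for the Fc receptor and adaptor genes, with each of the 3 probe sets of Fcgr2a shown (filled, detected; open, dim; 1 array per group, no error bars). Fcgr2al1, at −0.67, is the only point past the dotted limit for a lower call, and the Fcgr2a probe sets lie between −0.52 and −0.46.

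Genes of leukocytes and of their lysosomes also pointed in both directions. Ptprc, which encodes CD45, was listed at 497.2 in both pools. Cd53, a tetraspanin of leukocytes, read 768.5 without SF and 911.7 with it (log2 ratio 0.25). Laptm5, a lysosomal membrane protein gene of hematopoietic cells, was at 157.8 and 125.2 (−0.33), and Ctss, the gene of the protease cathepsin S, was at 194.2 and 155.6 (−0.32). None of the 4 passed the criteria.

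The 18 dim genes had intensities between 14.8 and 75.5, and their log2 ratios ran from −0.28 to 0.16 with a median of −0.02. Of these, 10 were below 0, 4 above 0 and 4 equal in both pools. The 4 equal ones were Msr1, the type A scavenger receptor gene, at 51.9, Aif1, which encodes Iba1, at 36.1, Ms4a7 at 36.2 and Trem2, a lipid-sensing receptor gene, at 21.2. The myeloid transcription factor genes Spi1, Irf8 and Irf5 were all dim, with log2 ratios of −0.13, −0.26 and 0.03. The genes of the costimulatory ligands Cd80 and Cd86, through which macrophages activate T cells, were dim too and both had a log2 ratio of −0.28. The scavenger receptor genes Cd163 and Marco, the sialic acid-binding receptor genes Siglec1 and Cd33, the lipopolysaccharide co-receptor gene Cd14 and Arg1, which encodes the arginine-cleaving enzyme arginase 1, made up the rest with Fcgr2b, Fcgr3a and Tyrobp. All 18 lay within 0.3 of 0 on the log2 scale.

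**Figure D4:**
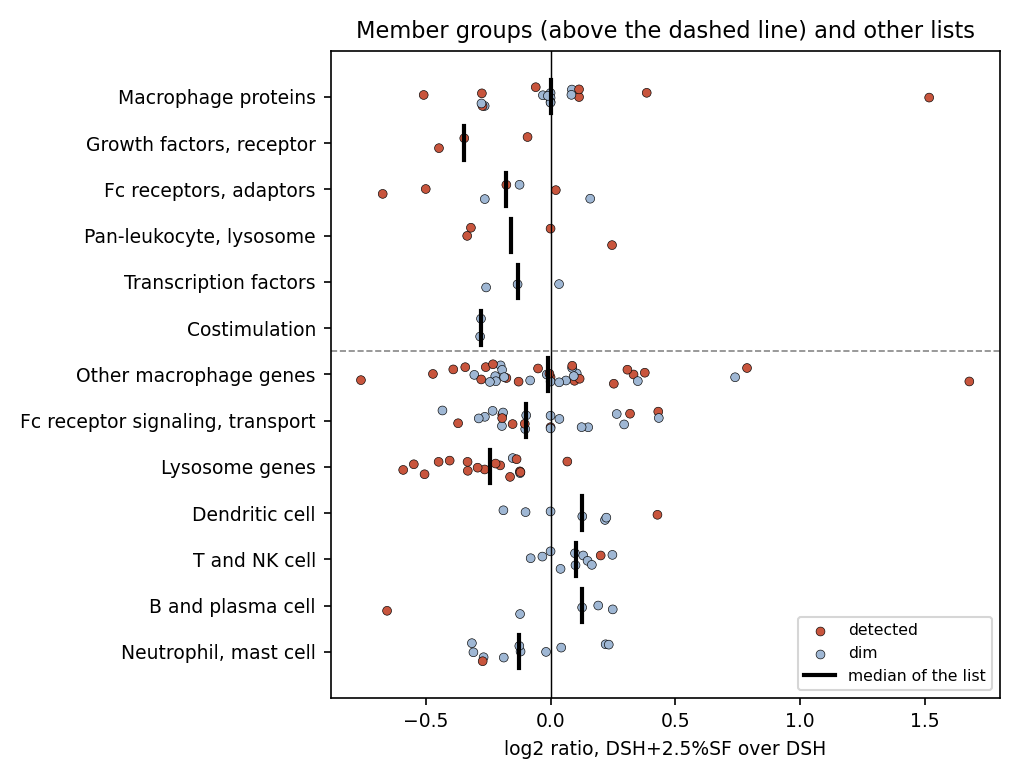
Log2 ratio of DSH+2.5%SF over DSH for each gene (points; red, detected; blue, dim) and the median (bar) of the 6 groups of macrophage and Fc receptor genes above the dashed line and of 7 other lists below it. The growth factor axis has a median of −0.35 and the macrophage protein group one of 0.

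The promoters of 3 members are shown as examples: that of Aoah, the gene called higher, and those of Adgre1 and Csf1r, which define macrophages and whose promoters hold the motif searched for. They were picked after the ratios and the matches were known. Each is the 250 bases before the annotated gene start in RefSeq, assembly GRCr8, 5′ to 3′ on the strand of the gene. Capitals mark GAGGAAG or its reverse complement CTTCCTC, the core of the site PU.1 prefers.
Aoah (GRCr8 chr17:48745147-48745396, minus strand): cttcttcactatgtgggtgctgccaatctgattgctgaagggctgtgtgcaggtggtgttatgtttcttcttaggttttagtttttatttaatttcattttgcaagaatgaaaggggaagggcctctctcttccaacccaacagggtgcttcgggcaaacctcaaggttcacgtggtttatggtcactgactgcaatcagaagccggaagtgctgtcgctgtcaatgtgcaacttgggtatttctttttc
Csf1r (GRCr8 chr18:56834129-56834378, plus strand): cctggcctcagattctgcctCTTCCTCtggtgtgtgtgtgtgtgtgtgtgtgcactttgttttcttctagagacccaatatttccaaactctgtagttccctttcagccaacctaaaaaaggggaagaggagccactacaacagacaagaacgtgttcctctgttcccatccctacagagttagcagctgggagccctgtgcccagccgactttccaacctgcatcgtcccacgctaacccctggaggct
Adgre1 (GRCr8 chr9:2329190-2329439, plus strand): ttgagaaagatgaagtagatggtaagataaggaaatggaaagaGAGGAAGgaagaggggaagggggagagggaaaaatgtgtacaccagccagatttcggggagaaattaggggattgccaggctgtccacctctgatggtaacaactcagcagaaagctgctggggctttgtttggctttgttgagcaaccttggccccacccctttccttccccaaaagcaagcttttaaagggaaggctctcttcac

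Of the 37 genes, 25 had a promoter in the table used, and 12 of the 25 held this motif on either strand in at least 1 of their promoters, as did 11.0% of the 27457 genes in that table. The longer form GAGGAAGT, which contains the first, was found in 3 of the 25 (Fcgr3a, Cd53 and Ctss) and in 2.20% of all genes. The motif was chosen after the ratios were known, and a match of letters is not a binding site.

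Other genes of macrophages, none of them among the 37, also had ratios on both sides of 0. Of 38 measured, 3 were called higher and 1 lower, where 1.09% of all genes were called higher and 1.36% lower. Their median log2 ratio was −0.01. Ccr2, the receptor that draws monocytes to Ccl2, had the highest ratio, reading 426.2 without SF and 1365 with it. C3ar1, the receptor of complement fragment C3a, was at 192.3 and 332.0, and Tlr2, a receptor for bacterial lipoproteins, was dim at 18.5 and 31.0. C1qa, the one called lower, was at 401 and 236. The study lists it among the genes it selected on these pools, so its direction on the arrays is not independent evidence. Apart from the arrays, the paper reports significantly less C1q protein in kidneys with SF than without it, by western blot. It also reports weaker immunofluorescence for C1q with SF. The partner genes of C1qa, named after their values were seen, were dim and not called. C1qb was at 71.5 and 75.9 and C1qc at 32.6 and 30.8. With the Z-score among probe sets of similar brightness, the calls of Ccr2 and Tlr2 held and those of C3ar1 (1.94) and C1qa (−1.83) did not. By that measure 1.05% of all genes were called higher and 0.883% lower. Of 24 measured genes of Fc receptor signaling and of other Fc receptors, none was called in either direction. Their median was −0.10, and among the detected Pigr, the receptor that carries immunoglobulin A across epithelium, had the lowest ratio (−0.37) and Dock2, which steers leukocyte migration, the highest (0.43). Dock2 (66.7 without SF and 90.0 with it) reached the detection limit only with SF, so its ratio had to be above 0. Markers of other leukocytes were mostly dim. Of 11 T and NK cell genes 1 was detected (Cd4, which rat macrophages also carry, at a log2 ratio of 0.20), of 11 neutrophil and mast cell genes 1 (Kit, −0.27), of 7 dendritic cell genes 1 (Clec9a, 0.43) and of 5 B and plasma cell genes 1 (Cd79a). The medians of these 4 lists were 0.10, −0.13, 0.13 and 0.13. Cd79a, which read 118.6 without SF and 75.3 with it, was the one of these genes called, as lower, but not with its Z-score of −1.73 among probe sets of like brightness. Clec9a (80.6 without SF and 108.5 with it) reached the detection limit only with SF, so its ratio had to be above 0. Cd79a reached that limit only without SF, so its ratio had to be below 0. The part of these other leukocytes in the values of the 37 genes was not tested.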

How the data were processed

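Total RNA of 3 kidneys per group was pooled, labeled with a whole-transcript kit and hybridized to 2 Clariom D rat arrays, 1 per group. The deposited intensities were made by the authors with RMA, and the submitters' processing notes name Affymetrix Expression Console 1.4.1. They are on a linear scale. For the probe sets, no genome build was given in the sources used here. Normalization between the arrays forces their overall distributions together, so a shift of all genes would not be seen.

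From these intensities, log2 ratios and Z-scores were computed for all 68842 probe sets. Of these, 23446 had 1 gene symbol in the platform annotation, and they stood for 22093 genes. The members and the gene lists were chosen with earlier results of these data known. Named genes were, by rule, every member, both pool values for each detected one, and, of each further list, the called genes and the highest and lowest detected ratio. Alternatives were other Z-scores, thresholds, normalizations and detection limits, a pseudocount of 16 and the mean of a gene's probe sets. The code that makes the calls was checked on simulated ratios of known size, which tests its arithmetic and gives no error for the arrays. The number of arrays, 1 per group, limits the precision. The software was pandas 2.3.3, numpy 2.4.6, statsmodels 0.14.6 and matplotlib 3.10.9 under Python 3.11.15.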

Additional observations from a re-analysis of the deposited data

How the results depend on the processing

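Aoah kept its call under every setting tried. The count of members called was 2 as reported and also with quantile normalization, median centring, the ratio criterion by itself, a pseudocount of 16 and the mean of a gene's probe sets. It was 1, Aoah, with the Z-score among the 1000 nearest probe sets and with a loess trend subtracted. The same count came with limits of 2 and 0.5 on the ratio. Leaving out Fcgr2al1, added after the data were seen, had to give 1, so that count tests nothing. Of all 22093 genes, 241 were called higher and 301 lower as reported. These counts were 437 and 404 by the ratio criterion alone. With limits of 2 and 0.5 they were 67 and 38, with the pseudocount 186 and 228, with the loess trend subtracted 253 and 262. With quantile normalization they were 245 and 274, and with the mean of a gene's probe sets 231 and 285. Median centring left them at 241 and 301, and the Z-score among the 1000 nearest probe sets gave 232 and 195. The median over all members ran from −0.15 to −0.08 and over detected members from −0.23 to −0.09. The least negative of the latter, −0.09, came with a limit reached in both pools (17 members), and the most negative, −0.23, with the members equal in both pools left out, also added after the data were seen. With median centring and with quantile normalization 13 of 19 detected members were below 0, Ptprc being the added one under centring, where 64.2% and 61.7% of all detected genes were. With a limit at the median brightness of all probe sets, 34 members counted as detected and 22 of them were below 0. The share over all genes was not computed for this limit either. No paired analysis was possible because each group had 1 array, and for the same reason no array could be left out.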

Other observations

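Genes of the lysosome, in which macrophages break down what they engulf and which tubule cells use as well, were nearly all below 0. Of 18 measured, 16 were detected, and 15 of these 16 had a log2 ratio below 0, where 58.7% of all detected genes did. None passed the criteria. Their median over the detected was −0.28. Ctsb, the gene of the protease cathepsin B, had the lowest log2 ratio at −0.59, and Lamp2, a membrane protein of the lysosome, was the one above 0 at 0.07. Grn, picked out after its values were seen, which encodes the lysosomal and secreted protein progranulin, read 1755 without SF and 1200.0 with it. Which cells of the kidney gave these values was not tested. The 8 endothelial and stromal genes were all below 0, where 58.7% of all detected genes were. They ran from Col1a1 (−0.77), which was called lower, to Emcn (−0.11). Kidney segment genes that were detected ran from Slc4a1 (−0.47) to Calb1 (1.32), which was called higher. Of all genes, 1.36% were called lower and 1.09% higher. Both calls held with the Z-score among probe sets of similar brightness (Col1a1 −2.13, Calb1 2.58). By that measure 0.883% of all genes were called lower and 1.05% higher.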
